A study of Mus musculus with 6 samples.

Results

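Cells that make secreted and membrane proteins watch the folding capacity of the endoplasmic reticulum (ER), and the 34 genes described here belong to that watch: sensors of the unfolded protein response, the ER chaperones and degradation factors they control, and the ATF4 targets of the integrated stress response. The members were chosen by known function, with earlier results of these data known, and grouped by role. They are 34 of the 32903 gene symbols that could be summed from the deposited table. All 34 were expressed high enough to be tested, out of 12520 genes tested in all. The cells were MuTuDC1940, an established line of mouse dendritic cells that resembles the type 1 conventional subset (cDC1), cells that take up dying cells and present their antigens to killer T cells. Untreated cells were compared with cells given the synthetic double-stranded RNA poly(I:C), a mimic of viral RNA, at 5 µg/ml, and the culture time stated for both was 18 hours. The series holds 3 samples per group. Here 2 libraries per group were used, headed NT01 and NT02 (untreated) and PolyIC01 and PolyIC02 (treated), because the header of the table leaves the group of the other 2 value columns unsettled.

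Sensor proteins in the ER membrane start the unfolded protein response. IRE1 removes a short stretch from the messenger RNA of XBP1 so that an active factor is made, ATF6 is cut free in the Golgi, and both factors raise chaperones and the machinery that extracts misfolded proteins for degradation. PERK, like the RNA-activated kinase PKR and the kinases GCN2 and HRI, phosphorylates the initiation factor eIF2α, which lowers protein synthesis while ATF4 is translated better, and ATF4 with its partner CHOP then switches on amino acid supply and stress genes. In cDC1 the IRE1 and XBP1 branch is known to be active without added stress. ATF4 and XBP1 are controlled largely through translation and splicing, which the summed messenger RNA level of these genes does not show.

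Values are TPM, transcript abundance per length relative to a total of 1000000 in each library, so sequencing depth is unknown and only relative levels can be compared. Whether replicates came from separate cultures is not stated, and the p-values therefore reflect only how far these libraries differ, a spread that could be technical. Of 6 cDC1 markers, 5 averaged above 1 TPM, with a summed level of 3069 to 3102 TPM in untreated and 3322 to 3388 TPM in treated libraries, while the sixth, Itgae, stayed under 1 TPM. Most of this sum was Irf8, at 2482 and 2477 against 2558 and 2639 TPM. At an adjusted p under 0.05 in limma 4 of the 6 rose, Xcr1 the most, from 194 and 191 to 335 and 326 TPM. Batf3 fell, from 145 and 143 to 114 and 120 TPM. Among 6 markers of plasma cells and B cells, types with a strong unfolded protein response, 5 stayed under 1 TPM in every library, and Jchain went from 0.252 and 0.154 to 4.74 and 4.69 TPM. The summed level of 6 macrophage and monocyte markers moved with the treatment, from 79.5 to 82.6 TPM up to 407 to 423 TPM, mostly through the complement genes C1qa, C1qb and C1qc, whereas Csf1r was under 1 TPM without poly(I:C) and listed at 0 with it. The sum of 3 plasmacytoid dendritic cell markers went from 183 to 185 TPM up to 1260 to 1287 TPM through Bst2, an interferon-induced gene, with Siglech under 1 TPM in every library. The part of these markers in the results below was not tested.

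With poly(I:C), all 10 transcription factors and stress effectors of the ATF4 arm rose, while 7 of the 11 ER chaperone and folding genes fell, 2 rose and 2 did not pass the test. Summing curated transcripts alone left 4 of the 5 transcription factors rising, as Ddit3 lost its call. The rise of Atf5 lay in a non-coding transcript, and its protein-coding transcript overlapped between the groups. The chaperone falls numbered 4 after median-ratio rescaling, in limma without trend or robust moderation, and without PolyIC01, a share near that of all genes. Of the 4 ER-associated degradation genes 2 rose and 1 fell, of the 4 sensor genes (XBP1 included) 2 rose and 2 fell, and of the 5 amino acid and one-carbon enzymes of the ATF4 arm 2 rose and 3 fell. Together, 18 members rose and 13 fell at an adjusted p under 0.05 in limma. Across all genes tested, 28.4% rose and 32.4% fell, and 60.8% were called in either direction, so that 31 called members out of 34 are to be read against a transcriptome in which most genes passed. The median log2 fold change was 0.94 over the 10 ATF4-arm factors and effectors and -0.10 over the 11 chaperones, beside -0.02 over all genes tested. Over all 15 genes of the ATF4 arm, enzymes included, the median was 0.58, with 12 rises and 3 falls. Over the 15 chaperone and degradation genes together it was -0.09, with 4 rises and 8 falls. Fold changes are differences of log2(TPM + 1), a scale on which the change of a low gene comes out too small.

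In all, 6 members rose at least 2-fold on that scale, namely Ddit3, Atf3, Nupr1, Sesn2, Herpud1 and Ppp1r15a, and no member fell that far. Across all genes tested 5.69% rose and 2.76% fell at least 2-fold. At an unadjusted p under 0.05 the number of members that fell was also 13, none of them by 2-fold. The groups did not overlap for 31 of 34 members, 18 of them with the treated libraries higher and 13 lower. Of all genes tested 81.3% did not overlap, 38.9% with the treated libraries higher and 42.4% lower.

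**Figure D1:**
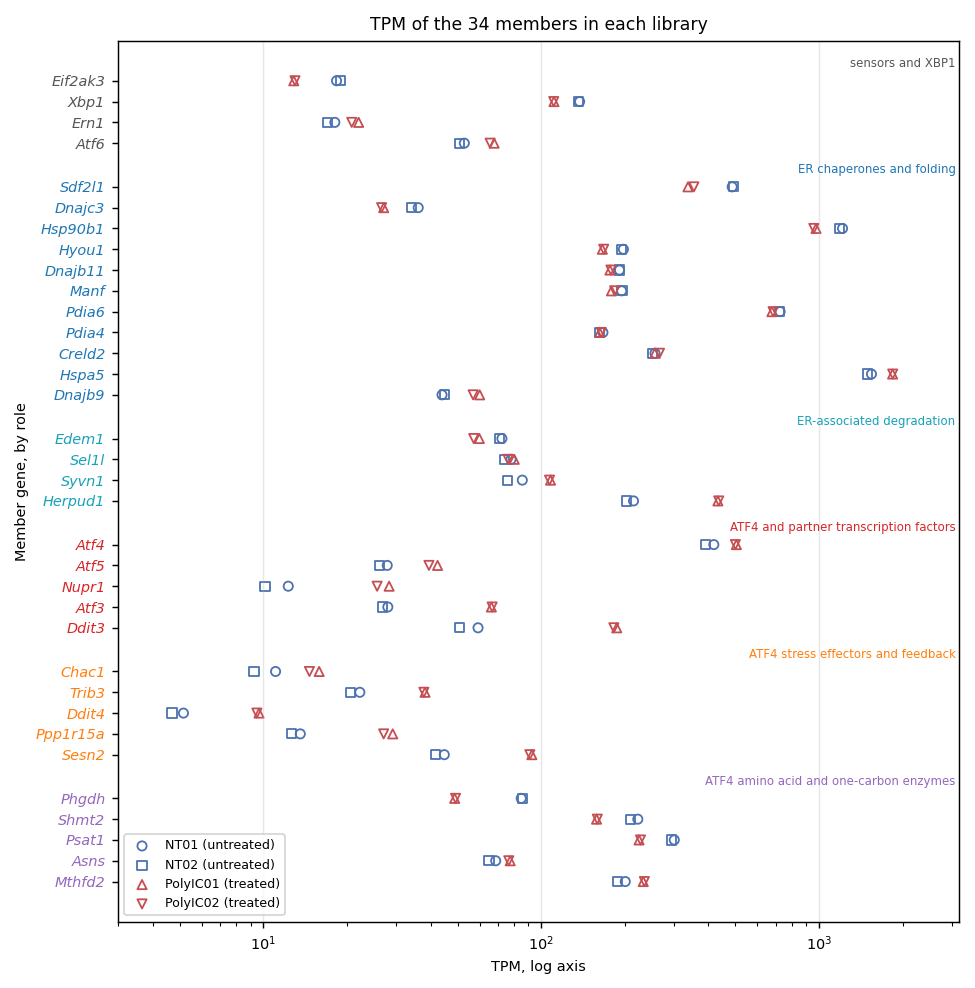
TPM of each of the 34 members on a log axis, ordered by role, with a marker for each of the 4 libraries. The red treated markers lie to the right of the blue untreated ones for all 10 ATF4-arm factors and effectors, and to the left for most chaperones, while Pdia4, Creld2 and Sel1l overlap.

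The sensor genes changed modestly and in different directions. Ern1 encodes IRE1, the kinase and RNase that splices Xbp1, and lay at 18.1 and 17 TPM in NT01 and NT02 and at 22 and 20.8 TPM in PolyIC01 and PolyIC02. Both treated values were above both untreated ones (log2 fold change 0.27, standard error 0.059, adjusted p = 0.00992 by limma), a call that was lost without PolyIC01 (adjusted p = 0.0643). Atf6, which encodes the cleaved sensor, rose from 52.9 and 50.7 to 67.7 and 65.5 TPM (log2 fold change 0.36, adjusted p = 0.00073). Eif2ak3, which encodes PERK, was the sensor gene that fell, from 18.3 and 19 to 12.9 and 13.0 TPM (-0.50, adjusted p = 0.000627). The genes for the sensor proteins thus did not share a direction.

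Xbp1, on chromosome 11 at 5520641 to 5525993 (GRCm38.p6, RefSeq), encodes the factor that IRE1 activates. Its summed level fell from 138 and 136 TPM to 111 and 111 TPM, or -0.30 on the log2 scale (standard error 0.027, adjusted p = 0.000298 by limma). IRE1 takes 26 bases out of its coding sequence between 2 sites with the letters CNGCAGC. The stretch is shown because RefSeq lists the forms with and without it as separate curated transcripts, so the deposited values divide between them. In the GENCODE M21 transcript Xbp1-201 (GRCm38), both sites were found in exon 4 of 5, inside the coding sequence, at chr11:5524262-5524327 on the plus strand, and the capitals mark the bases removed.
Xbp1: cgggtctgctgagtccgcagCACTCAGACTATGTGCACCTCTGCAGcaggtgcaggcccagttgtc

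The RefSeq transcript NM_001271730.1, known as the spliced form, was given 59.7 and 47.9 TPM without poly(I:C) and 48.6 and 52.8 TPM with it, and these values overlap. The transcript NM_013842.3, known as the unspliced form, was given 77.9 and 88.4 TPM without poly(I:C) and 62.5 and 58.2 TPM with it, with both treated values lower. The spliced form thus held 43.4% and 35.2% of the gene's TPM without poly(I:C) and 43.8% and 47.6% with it. The untreated libraries differ from each other by more than NT01 differs from PolyIC01, and no test was made of this split. Which transcript is spliced is taken from background knowledge of RefSeq and was not checked here by sequence. The split rests on reads that cross the short excised stretch, so how sharply the quantification separates the forms is uncertain.

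**Figure D2:**
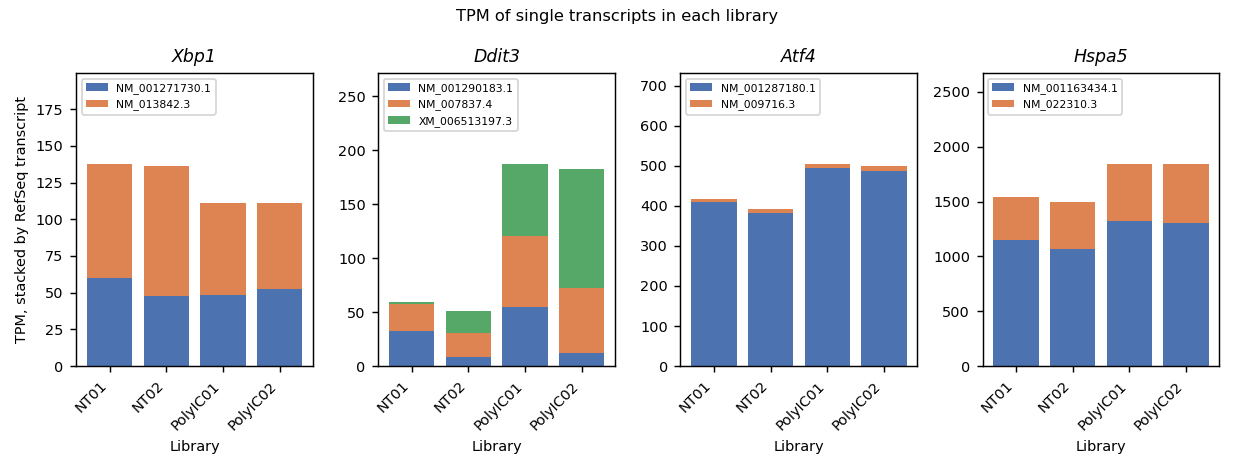
TPM of the RefSeq transcripts of Xbp1, Ddit3, Atf4 and Hspa5, stacked for each of the 4 libraries, each colour a transcript. The stack of Xbp1 is lower and that of Ddit3 higher in both treated libraries, and the division of Ddit3 between its transcripts differs between libraries of the same group.

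The ER chaperones are among the abundant transcripts of these cells, and their summed level hardly moved: the 11 genes together held 5058 and 4966 TPM in NT01 and NT02 and 4857 and 4882 TPM in PolyIC01 and PolyIC02. Within that sum the genes parted. Hspa5 encodes BiP, the main ER chaperone of the Hsp70 family, and rose from 1544 and 1499 to 1840 and 1841 TPM (log2 fold change 0.27, standard error 0.023, adjusted p = 0.000253 by limma). Hsp90b1 encodes GRP94, the ER member of the Hsp90 family and a chaperone of Toll-like receptors and integrins, and fell from 1215 and 1182 to 976 and 958 TPM (-0.31, standard error 0.025, adjusted p = 2e-04). The ratio of Hspa5 to Hsp90b1 TPM within a library, which no rescaling of libraries can alter, was 1.27 in both untreated libraries and 1.89 and 1.92 in the treated ones.

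The other riser was Dnajb9, the gene of the BiP co-chaperone ERdj4 that holds IRE1 in check, which went from 44.0 and 44.9 to 60.1 and 56.9 TPM (log2 fold change 0.39, adjusted p = 0.000662 by limma). The deepest fall of this group was in Sdf2l1, a partner of ER Hsp40 co-chaperones, from 487 and 492 to 338 and 355 TPM (-0.50, adjusted p = 7.46e-05). Dnajc3, which encodes the co-chaperone p58IPK, an inhibitor of PERK and PKR, fell from 36.1 and 34.1 to 27.1 and 26.7 TPM (-0.37, adjusted p = 0.00136). Hyou1, the gene of the BiP exchange factor GRP170, fell from 198 and 195 to 166 and 168 TPM (-0.23, adjusted p = 0.000716). In each of these 4 genes the treated libraries lay wholly to one side of the untreated ones, as in 81.3% of all genes tested.

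The remaining chaperones moved by a few percent. Dnajb11, the co-chaperone ERdj3, went from 191 in both untreated libraries to 177 and 178 TPM. Manf, a secreted ER stress protein, went from 195 in both to 179 and 184 TPM, and Pdia6, a disulfide isomerase, from 724 and 720 to 677 and 683 TPM. These 3 genes passed the test with log2 fold changes between -0.09 and -0.11. Their calls were lost when the libraries were rescaled by their median ratio, which left 4 falls among the 11 genes, and also in limma without trend or robust moderation. Pdia6 further lost its call without any 1 of the 4 libraries (adjusted p = 0.0575 to 0.0951), Manf without NT01, NT02 or PolyIC01 (0.0537 to 0.114) and Dnajb11 without PolyIC01 or PolyIC02 (0.0714 and 0.0503). Pdia4, another disulfide isomerase, overlapped between the groups at 167 and 162 against 162 and 165 TPM (log2 fold change -0.01, standard error 0.029, adjusted p = 0.821). Creld2, an ER stress-induced isomerase, also overlapped at 257 and 251 against 257 and 267 TPM (0.04, standard error 0.030, adjusted p = 0.28).

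The degradation genes included the strongest riser of the ATF6 and XBP1 side. Herpud1, on chromosome 8 at 94386429 to 94395371, encodes a membrane protein that organises the retrotranslocation complex, and it rose from 215 and 202 to 433 and 436 TPM, 2.08-fold (log2 fold change 1.05, standard error 0.035, adjusted p = 8.92e-06 by limma). Relative to Hspa5, its TPM went from 0.139 and 0.135 to 0.235 and 0.237. Syvn1, the ubiquitin ligase HRD1, rose from 85.5 and 75.8 to 108 and 107 TPM (0.41, adjusted p = 0.00201), while its adaptor gene Sel1l overlapped at 77.9 and 73.7 against 80.0 and 76.0 TPM (0.04, standard error 0.044, adjusted p = 0.462). Edem1, which picks out misfolded glycoproteins, fell from 72.2 and 70.6 to 59.9 and 57.2 TPM (-0.28, adjusted p = 0.00162). Ligase and adaptor of the same complex therefore gave different calls, a difference between genes that was not itself tested.

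The promoters of these genes are shown because ATF6 and XBP1 act through the ER stress response element (ERSE), CCAAT and CCACG with 9 bases between them. RefSeq promoter windows (GRCm38.p6, the 250 bases before and 50 after each annotated gene start) were found for 31 of the 34 members, not for Atf6, Hyou1 and Manf. Exact ERSE matches on either strand stood in 6 members, Creld2, Dnajc3, Hsp90b1, Hspa5, Pdia6 and Syvn1, and in 0.119% of all 32851 windows (37 of 27025 genes). The related ERSE-II, ATTGG and CCACG with 1 base between them, stood in Herpud1 and, after the gene start, in Dnajb11, beside 0.0365% of all windows (12 genes). The XBP1 core TGACGTGG matched no member, beside 0.676% of all windows (193 genes). No match overlapped another. Each sequence below runs along the gene's strand with 20 bases on each side, and the capitals mark the match.
Hspa5, chr2:34772005-34772063, plus strand: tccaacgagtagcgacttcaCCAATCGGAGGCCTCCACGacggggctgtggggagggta
Syvn1, chr19:6046512-6046570, plus strand: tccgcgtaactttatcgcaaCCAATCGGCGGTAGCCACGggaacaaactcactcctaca
Dnajc3, chr14:118937807-118937865, plus strand: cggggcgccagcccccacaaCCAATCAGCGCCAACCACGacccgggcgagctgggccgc
Hsp90b1, chr10:86705618-86705676, minus strand: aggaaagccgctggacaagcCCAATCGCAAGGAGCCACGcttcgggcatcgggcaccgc
Herpud1, chr8:94386357-94386407, plus strand: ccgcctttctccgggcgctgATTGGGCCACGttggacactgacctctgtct

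The genes with an ERSE went both ways. Hspa5 and Syvn1 rose, Dnajc3, Pdia6 and Hsp90b1 fell, and Creld2 did not pass. Hsp90b1 held a further match on the opposite strand, 107 bases before the start. Among all genes with an ERSE in a window, 18 could be tested, of which 3 rose and 7 fell, with a median log2 fold change of -0.13. The 12 of them that are not members gave 1 rise and 4 falls. Over the 10011 tested genes with a promoter window, 28.0% rose and 32.6% fell. A match describes letters in the window and says nothing of whether a factor was bound.

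The transcription factors of the ATF4 arm all rose. Atf4 itself changed modestly, from 418 and 392 to 504 and 500 TPM (log2 fold change 0.31, standard error 0.036, adjusted p = 0.000855 by limma). Ddit3, on chromosome 10 at 127290793 to 127296291, encodes the pro-apoptotic factor CHOP and had the largest rise of all members, from 59.3 and 50.7 to 187 and 183 TPM, 3.36-fold (1.74, standard error 0.076, adjusted p = 3.61e-05), which placed it 247th among the 12520 genes by log2 fold change. The ratio of Ddit3 to Atf4 TPM within a library went from 0.142 and 0.129 to 0.371 and 0.365. All 4 treated values of these genes lay above the untreated ones, an order that 38.9% of all genes tested showed.

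The rise of Ddit3 was divided among 3 transcripts, and this division was unsteady. The curated transcript NM_007837.4 went from 25.1 and 21.4 to 65.6 and 60.2 TPM. The curated NM_001290183.1 was at 32.6 and 8.88 against 54.5 and 12.3 TPM, with overlap, and the predicted XM_006513197.3 at 1.61 and 20.4 against 67.0 and 110 TPM. When curated transcripts alone were summed, the log2 fold change of Ddit3 was 1.14 and its call was lost (adjusted p = 0.0696 by limma). Ddit3 overlaps Mars1 and Mbd6 in the annotation, and no source used here says whether the counting used strand. Mars1 fell from 98.5 and 96.7 to 84.3 and 86.5 TPM, and Mbd6 overlapped between the groups.

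Atf3, a repressor induced by many stresses and by Toll-like receptor signals, rose from 28.1 and 26.9 to 66.2 and 66.6 TPM, 2.42-fold (log2 fold change 1.24, standard error 0.041, adjusted p = 8.73e-06 by limma). Nupr1, a small stress-induced chromatin protein, rose from 12.3 and 10.1 to 28.4 and 25.7 TPM, 2.41-fold (1.20, standard error 0.101, adjusted p = 0.000235). Atf5, a factor translated in the same way as ATF4, rose from 27.9 and 26.2 to 42.4 and 39.4 TPM (0.58, adjusted p = 0.000434). Its sum rests mainly on a non-coding transcript, NR_033136.1, with 78.1% and 85.2% of the TPM in untreated and 89.8% and 94.9% in treated libraries. The protein-coding transcript of Atf5 was at 6.11 and 3.88 against 4.31 and 2.02 TPM. Atf5 also overlaps Nup62 and Il4i1b, of which Il4i1b rose from 0.101 and 0.177 to 5.22 and 4.01 TPM, and its part in the Atf5 value was not tested.

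The stress effectors and feedback genes of the ATF4 arm rose by 1.5-fold to 2.15-fold in mean TPM. Ppp1r15a encodes GADD34, which brings a phosphatase to eIF2α and ends the response, and rose from 13.6 and 12.7 to 29.2 and 27.1 TPM (log2 fold change 1.05, standard error 0.064, adjusted p = 6.92e-05 by limma). Sesn2, a leucine sensor that restrains mTORC1, rose from 44.8 and 41.7 to 92.6 and 91.0 TPM (1.07, standard error 0.044, adjusted p = 1.82e-05). Ddit4, which encodes the mTORC1 inhibitor REDD1, rose from 5.16 and 4.70 to 9.65 and 9.48 TPM (0.84, adjusted p = 0.000315). Both mTORC1 inhibitors thus stood higher in each treated library.

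Trib3, a pseudokinase that binds ATF4 and dampens its output, rose from 22.3 and 20.6 to 38.2 and 37.8 TPM (log2 fold change 0.80, adjusted p = 9.62e-05 by limma). Chac1, an enzyme that degrades glutathione, rose from 11.1 and 9.26 to 15.9 and 14.7 TPM (0.55, standard error 0.095, adjusted p = 0.00426), the smallest rise of this group. The groups did not overlap for any of the 5 effectors, nor for 81.3% of all genes tested (38.9% with the treated libraries higher).

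**Figure D3:**
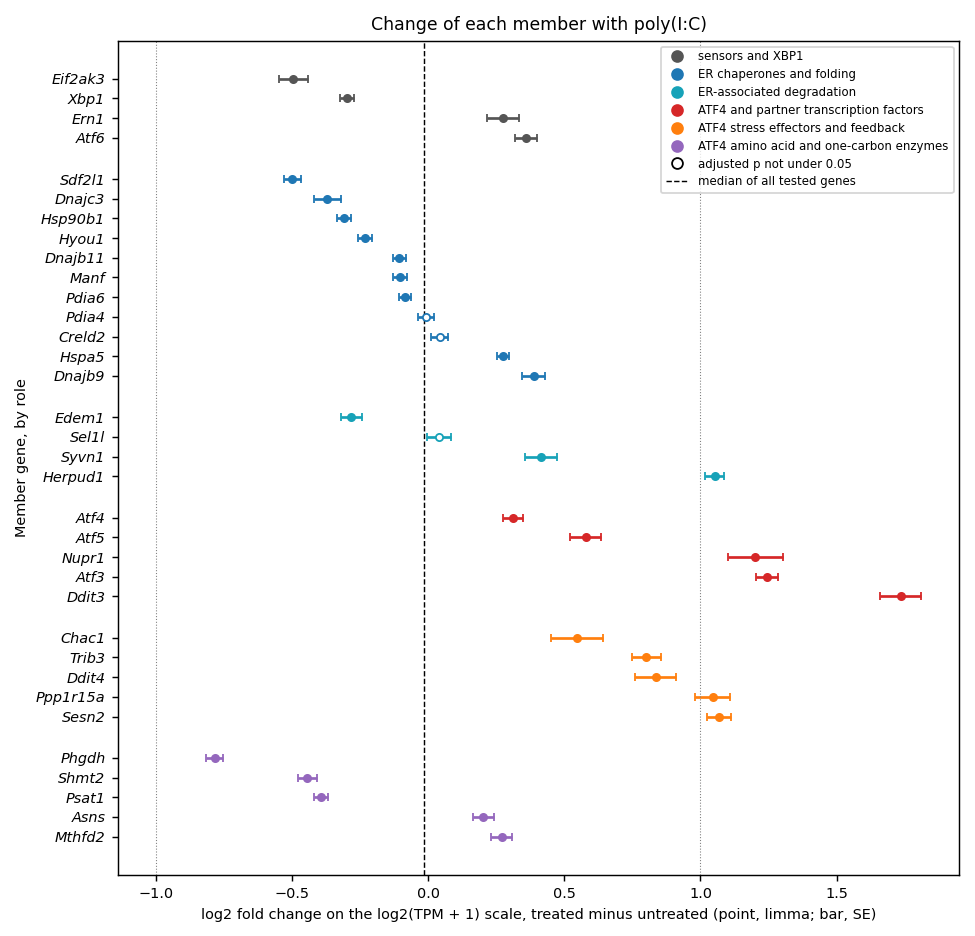
Log2 fold change of each member on the log2(TPM + 1) scale, treated minus untreated, with the SE from limma as a bar and open circles for the 3 members that did not pass. The red and orange ATF4-arm factors and effectors lie between 0.31 and 1.74, most blue chaperones lie left of the dashed median of all genes tested, and the purple enzymes fall on both sides.

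ATF4 and its partners act through the composite C/EBP-ATF response element (CARE), searched here as TGATGNAAN on both strands. It matched 6 of the 31 members with a window (Asns, Atf3, Chac1, Herpud1, Nupr1 and Trib3), beside 3.95% of all windows. By gene, 1215 of the 27025 with a window held it. All 6 of these members rose, though Asns lost its call with curated transcripts alone. The ATF4-arm factors and effectors without a match (Atf4, Atf5, Ddit3, Ddit4, Ppp1r15a and Sesn2) rose too. Of the enzymes without a match, Mthfd2 rose, and Phgdh, Psat1 and Shmt2 fell. Sequences are shown for the 4 matched members with the largest change among those with a match upstream of the start. These 4 hold the same core on the opposite strand. The upstream match of Asns lies on the gene's own strand and is not shown. In the 4 shown, the core reads TTGCATCA along the gene. The capitals mark the match, and the match of Trib3 lies after the gene start and is not shown.
Atf3, chr1:191183416-191183464, minus strand: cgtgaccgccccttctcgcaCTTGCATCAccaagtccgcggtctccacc
Nupr1, chr7:126625553-126625601, minus strand: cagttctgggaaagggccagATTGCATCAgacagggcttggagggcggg
Herpud1, chr8:94386296-94386344, plus strand: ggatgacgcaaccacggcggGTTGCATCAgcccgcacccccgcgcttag
Chac1, chr2:119351028-119351076, plus strand: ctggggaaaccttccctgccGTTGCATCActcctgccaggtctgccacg

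Herpud1 was the only member with both a CARE and an ERSE-II match, 113 and 52 bases before its start. In Atf3 and Nupr1 the CARE match began 111 bases before the start, and in Chac1 194 bases before it. Of the 299 tested genes with a CARE match, 39.1% rose and 26.4% fell, with a median log2 fold change of 0.07. Without the 6 members, 37.9% of the other 293 genes rose and 27.0% fell, beside 28.0% and 32.6% of all tested genes with a window. This is a description across genes, which are not replicates.

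**Figure D4:**
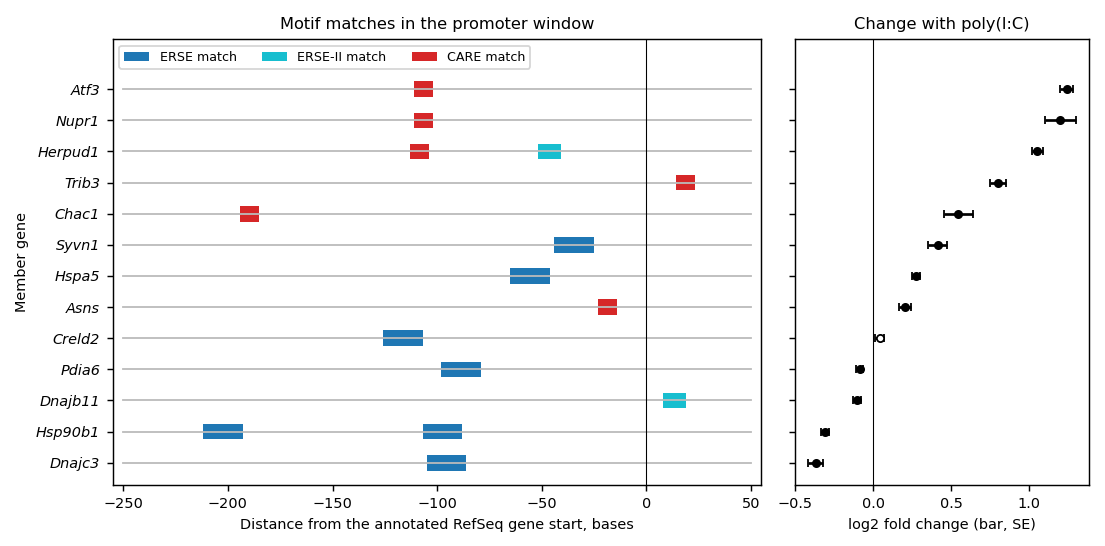
Left, positions of exact ERSE, ERSE-II and CARE matches in bases from the annotated gene start for the 13 members that hold one. Right, their log2 fold change with the SE, where the 6 genes with a red CARE match all lie above 0 and the blue ERSE genes lie on both sides.

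The enzymes of amino acid and one-carbon supply went both ways, with 2 rises and 3 falls. Phgdh, Psat1 and Psph make serine from a glycolytic intermediate, and Shmt2 and Mthfd2 pass its carbon into the mitochondrial folate cycle. Phgdh showed the deepest fall of all members, from 84.8 and 85.7 to 48.8 and 49.2 TPM (log2 fold change -0.79, standard error 0.032, adjusted p = 1.71e-05 by limma). Psat1 fell from 301 and 294 to 225 and 228 TPM (-0.39, adjusted p = 9.49e-05), and Shmt2 from 223 and 210 to 158 and 159 TPM (-0.44, adjusted p = 0.000187). Psph, not a member but the last enzyme of that pathway, fell from 24.8 and 26.2 to 20.9 and 21.1 TPM (-0.27, adjusted p = 0.00586), a call lost with curated transcripts alone (adjusted p = 0.453).

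Mthfd2 rose from 201 and 188 to 233 and 235 TPM (log2 fold change 0.27, adjusted p = 0.00185 by limma). Asns, the asparagine synthetase gene, rose from 68.6 and 64.9 to 77.4 and 76.5 TPM (0.20, standard error 0.039, adjusted p = 0.00642), and this call was lost when curated transcripts alone were summed (0.09, adjusted p = 0.337). Within a library, the ratio of Phgdh to Asns TPM went from 1.24 and 1.32 to 0.631 and 0.643, and that of Psat1 to Asns from 4.39 and 4.53 to 2.91 and 2.98. The serine enzymes thus stood lower relative to Asns in both treated libraries.

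Other genes of these pathways were taken as lists by function, likewise with earlier results of these data known. Their counts stand beside 28.4% of all genes tested that rose and 32.4% that fell. Of the eIF2α kinases, Eif2ak2 encodes PKR, which binds double-stranded RNA and is itself induced by interferon, and it rose from 65.7 and 59.9 to 137 and 127 TPM, 2.10-fold (log2 fold change 1.06, standard error 0.060, adjusted p = 5.41e-05 by limma). Eif2ak4, the uncharged tRNA sensor GCN2, rose from 19.8 and 19 to 22.4 and 22.6 TPM (0.20, adjusted p = 0.0159), a call lost with curated transcripts alone (adjusted p = 0.384) and without NT02, PolyIC01 or PolyIC02 (0.0548 to 0.0908). With eIF2 and eIF2B subunits and the constitutive phosphatase subunit Ppp1r15b (0.28, adjusted p = 0.00158), 6 of 12 tested genes of this list rose and 4 fell. The falls included Eif2ak1, the HRI gene, from 51.7 and 50.2 to 45.4 and 47.1 TPM (-0.14, adjusted p = 0.0306 by limma). The PERK gene Eif2ak3, a member outside this list, also fell. Of the eIF2B subunit genes, Eif2b3 (-0.48) and Eif2b5 (-0.31) fell, Eif2b1 (0.12) and Eif2b2 (0.20) rose, and Eif2b4 did not pass.

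Of 17 other ATF4 targets tested, 9 rose and 2 fell, with a median log2 fold change of 0.26. The largest rises were in Cebpb, a partner factor, from 15.3 and 15.7 to 49.3 and 53.6 TPM (1.67), and in the cystine transporter gene Slc7a11, from 1.69 and 1.36 to 3.98 and 3.67 TPM (0.94). Pck2, the mitochondrial PEPCK gene, fell (-0.46), and Psph was the other fall. The 18 cytosolic aminoacyl-tRNA synthetase genes, several of them ATF4 targets, gave 6 rises and 7 falls with a median of -0.03. Sars (0.52) and Cars (0.45) rose most, and Iars (-0.35) and Lars (-0.29) fell most. With curated transcripts alone Cars was at 0.091 (adjusted p = 0.641 by limma) and Iars also lost its call (adjusted p = 0.0829).

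The machinery that feeds the ER fell together. Of 21 tested genes of ER translocation and N-glycosylation 20 fell and 0 rose in limma, with a median log2 fold change of -0.54. All 21 values were below 0, so that 0 rose at an unadjusted p under 0.05 too, and Sec11a did not pass. The summed level of the list went from 3554 and 3608 to 2537 and 2536 TPM. The largest falls were in Ssr4, a subunit of the translocon-associated complex, from 192 in both untreated libraries to 106 and 114 TPM (-0.80, adjusted p = 3.48e-05), and in the signal peptidase gene Spcs3, from 202 and 209 to 127 and 123 TPM (-0.71, adjusted p = 2.34e-05).

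Folding enzymes outside the members pointed the same way. Of 18 other folding enzymes and lectin chaperones 14 fell and 1 rose, with a median of -0.47. The disulfide isomerase gene Pdia5 fell from 11.3 and 11.6 to 5.81 and 5.79 TPM (-0.87) and the ER oxidase gene Ero1b from 60.5 and 59.6 to 35.2 in both treated libraries (-0.75). The riser was Serp1, which stabilises membrane proteins under stress, from 339 and 341 to 482 and 472 TPM (0.49, adjusted p = 3.33e-05 by limma). Of 15 other degradation genes 2 rose (Derl1 at 0.19 and Herpud2 at 0.20) and 4 fell, with a median of -0.01. The call of Herpud2 was lost under 6 of 12 alternatives, with an adjusted p of 0.0635 to 0.597, the highest with curated transcripts alone (log2 fold change 0.055). Among them Derl3, an XBP1 target, was at 8.23 and 6.63 against 4.11 and 2.21 TPM (-1.05, standard error 0.248, adjusted p = 0.0187), a call lost without either untreated library (adjusted p = 0.189 and 0.136).

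Transport genes went both ways, as did all genes tested, of which 28.4% rose and 32.4% fell. Of 13 genes of the COPII coat and KDEL receptors 4 rose (30.8%) and 6 fell (46.2%), with a median of -0.12. The KDEL receptor genes Kdelr3 (-0.57) and Kdelr1 (-0.38) fell most, and Sec24a (0.33) and Sec24b (0.22) rose most. The call of Sec24a was lost without PolyIC01 (adjusted p = 0.0547 by limma). Of 6 tested genes of the membrane-bound CREB3 family and the site proteases that release ATF6, 2 rose (Creb3 at 0.47 and Creb3l4 at 0.57) and 2 fell (Creb3l2 at -0.33 and Mbtps1 at -0.18). Of these, Creb3 alone kept its call under all 12 alternatives: Creb3l4 lost it without PolyIC01 (adjusted p = 0.0655), Mbtps1 with curated transcripts alone (0.439), and Creb3l2 with curated transcripts alone (0.165) and without NT01, PolyIC01 or PolyIC02 (0.0516 to 0.0956). Bloc1s1 and Hgsnat, the tested 2 of 6 transcripts reported elsewhere as cut by IRE1 in its decay mode, fell from 124 and 126 to 94.5 and 89.3 TPM (-0.44) and from 31.5 and 30.6 to 23.0 and 23.2 TPM (-0.41). Over all genes tested the median was -0.02.

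**Figure D5:**
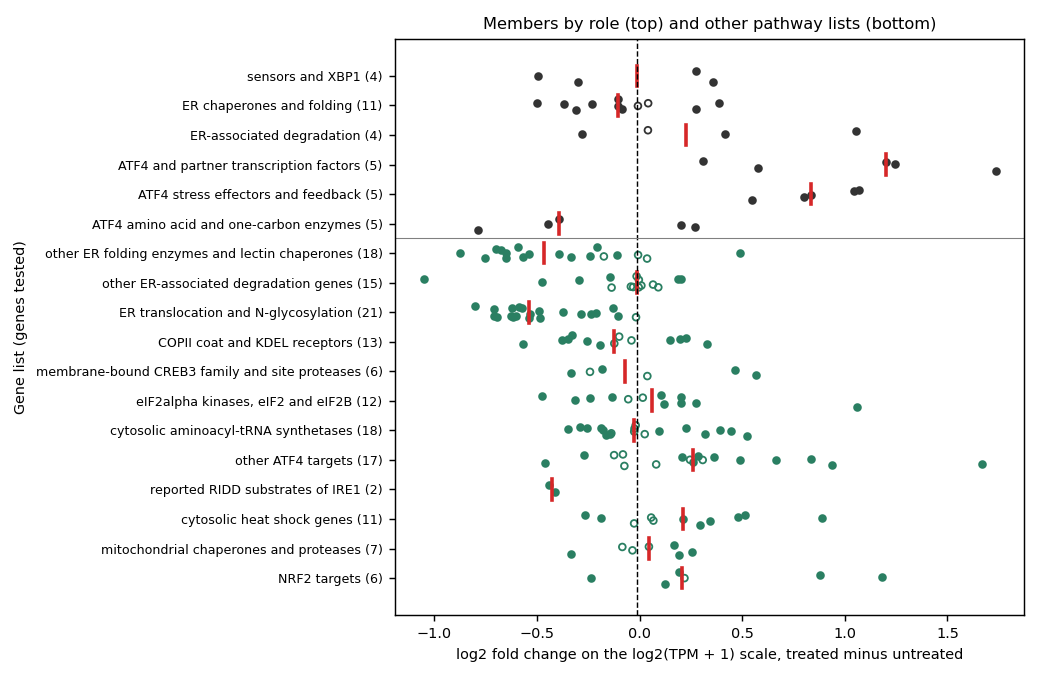
Log2 fold changes on the log2(TPM + 1) scale for the members by role (top) and for the tested genes of the other pathway lists (bottom), with the number of genes in brackets, filled points for genes that passed, red bars for list medians and a dashed line for the median of all genes tested. The ATF4-arm factors and effectors lie to the right, and ER translocation and N-glycosylation, with a median of -0.54, to the left.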

How the data were processed

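Polyadenylated RNA was sequenced from stranded libraries, per the labels' protocols. Tools listed, per the submitters' processing notes, are kallisto 0.42.4 and bcl2fastq 2.20.0.422, and the build is GRCm38. Although the deposited file's name says FPKM, each column adds up to 1000000, and the values were therefore read as TPM made by the authors per RefSeq transcript. The header has 5 names above 6 columns of values, with a blank after NT01. The 4 columns whose group is the same under either reading were used, and 2 columns were not. Libraries are called by their headings.

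Transcripts (86722 of 107384, 80.8%) were matched by accession to RefSeq symbols (GRCm38.p6) and summed. These held 91.8% to 92.2% of each library's TPM. Genes averaging 0.5 TPM or more were tested with limma 3.58.1 (R 4.3.3) on log2(TPM + 1) with trend and robust moderation, Benjamini-Hochberg adjusted over all of them. The fit was also run on simulated data with independent noise and few changed genes. That setting is unlike these libraries, so the run is no support for the calls given here. No list was tested as a set. The members and lists were chosen with earlier results of these data known. Every member is named, and of each other list up to 2 rises and 2 falls with the largest change. Eif2ak1, Eif2ak2, Eif2ak4 and the eIF2B subunit genes are named besides. Promoter and transcript sequences come from RefSeq and GENCODE M21. Of the genes with a match upstream of the start, the 4 with the largest change per motif were shown, and Herpud1 also for its ERSE-II. Alternatives covered the filter, pseudocount, moderation, scaling, transcripts summed, a replicate block and leaving out each library. Some items are not reported here.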

Additional observations from a re-analysis of the deposited data

How the results depend on the processing

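Of 408 fold changes of members under 12 alternatives, 387 kept direction and call, 18 lost the call and 3 changed sign; 25 of the 31 called members kept the call throughout. The sign changes were all in Pdia4, which never passed: 0.031 with median-ratio rescaling, and -0.029 to 0.013 when each library was left out. Calls were lost for Pdia6, Dnajb11, Manf, Ern1, Ddit3 and Asns. With limma without trend or robust moderation, and with rescaling, 4 chaperones fell rather than 7. Rescaling moved the median of all genes from -0.02 to 0.02. With curated transcripts alone, 1 ATF4 enzyme rose, 1 other degradation gene rose, 0 CREB3 family genes fell, 3 eIF2 genes rose and 1 other ATF4 target fell. With no filter, 1 other degradation gene and 1 IRE1 decay substrate rose and 1 heat shock gene fell, and in limma without trend or robust moderation 1 other degradation gene rose and 1 heat shock gene fell. The cause of these changes was not tested.

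Leaving out each library gave 4 to 5 chaperones that fell (4 without PolyIC01) and 1 to 2 sensors that rose (1 without PolyIC01). The other lists gave 1 to 2 rises and 2 to 3 falls in other degradation genes (2 falls without NT02), 2 to 3 rises in COPII genes, 1 to 2 rises and 1 to 3 falls in CREB3 genes, 3 to 5 rises in eIF2 genes, 2 to 5 falls in other ATF4 targets (5 without NT02), 1 to 2 falls in heat shock genes and 2 to 4 rises in NRF2 targets (2 without PolyIC01 or PolyIC02). A group left with 1 library was assumed to vary like the other. With a replicate block by the column headings, 18 members rose and 13 fell, as without it, and 3780 genes rose and 4277 fell over all genes. These heading numbers may not be the replicate numbers, so this is no evidence of pairing. Depth is unknown and sets no limit that could be computed.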

Other observations

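Genes of other stress programmes were also measured, beside 28.4% of all genes tested that rose and 32.4% that fell. Of 6 tested NRF2 targets, the genes of the response to oxidants, 4 rose and 1 fell. Hmox1, the haem oxygenase gene, rose from 221 and 234 to 492 and 541 TPM (log2 fold change 1.18, adjusted p = 3.54e-05 by limma), and Srxn1, which repairs oxidised peroxiredoxins, from 8.60 and 8.27 to 15.3 and 17.4 TPM (0.88). Gclm, a subunit of the enzyme that starts glutathione synthesis, fell from 45.9 and 45.2 to 38.2 and 38.9 TPM (-0.23). Nqo1 did not pass.

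Of 11 tested cytosolic heat shock genes 6 rose and 2 fell, with a median of 0.21. The inducible Hsp70 genes Hspa1a (1.96 and 2.10 against 4.77 and 4.45 TPM, 0.89) and Hspa1b (4.64 and 4.14 against 7.01 and 6.38 TPM, 0.51) rose most; they are close copies, so the division of TPM between them is uncertain. The heat shock factor gene Hsf1 fell (-0.27), as did the co-chaperone gene Chordc1 (-0.19), whose call was lost under 5 of 12 alternatives (adjusted p = 0.057 to 0.0687 by limma). Of 7 mitochondrial chaperone and protease genes 3 rose, among them Lonp1 (0.25) and Hspa9 (0.19), and Hspd1 fell from 333 and 318 to 262 and 253 TPM (-0.34).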
